A study of Homo sapiens with 12 samples.

Results

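The genes described here encode proteins that repair DNA or signal its damage. They were chosen by name: protein-coding genes whose symbol starts with FANC, RAD5, RAD1, RAD9, XRCC, ERCC, BRCA, BRIP, PARP, REV, NEIL, OGG, MLH or PMS, the specialised DNA polymerase genes, and a short set of single genes such as ATR, CHEK1, EXO1, NBN and UNG. Of 91 RefSeq symbols that match, 43 had a probe set named for them alone and are members, among 14118 genes tested in all. The 48 other symbols are not analysed here, and they include every gene of nucleotide excision repair that the rule covers. PARPBP, RAD54L2 and RAD51AP2 belong by symbol, although their products are partners or relatives of repair proteins. FANCD2OS belongs by symbol alone, without a known repair role, and its level was low, between 4.55 and 4.86 on all arrays.

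RNA of HCT116, SW48 and RKO was read on Affymetrix Human Gene 2.0 ST arrays. These are established human colorectal cancer cell lines that are labelled as wild type for p53. Each line was left untreated or was given Nutlin-3a at 10 µM for 8 h, which makes 6 groups of 2 arrays. Nutlin-3a blocks the binding of MDM2 to p53, so that p53 accumulates without DNA damage being inflicted. The labels speak of duplicates and do not say if these were separate cultures. P-values therefore cover the spread of these arrays alone, which may be technical.

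Cells use separate routes for separate lesions. Homologous recombination mends double-strand breaks and broken replication forks by copying the sister chromatid, and it works mainly in S and G2 phase. End joining ligates breaks directly, base excision repair removes single damaged bases, mismatch repair corrects replication errors, and translesion polymerases copy past damaged bases. Checkpoint kinases such as ATR and CHEK1 halt the cycle while repair proceeds. Active p53 induces some repair genes directly and lowers many cell cycle genes through CDKN1A, the RB family and E2F factors, which also act on several recombination genes.

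The levels are the deposited values, taken as log2 signal, and differences are log2 fold changes given ± their standard error from limma. Arrays of one group correlated at 0.996 to 0.997 over all probe sets and differed by a median of 0.090 to 0.101. The p53 targets TP53INP1, SESN1, GDF15 and BBC3, which are the 4 of 7 listed control genes that were measured, were higher after Nutlin-3a in each line, all with an adjusted p under 0.05. EPCAM, an epithelial marker, stood at 11.02 in untreated HCT116, 11.12 in SW48 and 6.03 in RKO, so RKO lacked the high level of the other lines. Of the 9 measured colorectal epithelium markers, CEACAM5 (4.37, 9.25 and 4.67 in the same order), CDX2 (7.38, 9.60 and 7.52) and LGR5 (3.84, 6.75 and 3.72) were high in SW48 and lower in both HCT116 and RKO. KRT20 (5.27, 4.41 and 4.17) and KRT18 (8.18, 7.43 and 7.28) were instead highest in HCT116. Between untreated SW48 and HCT116, 3 of the 9 were called higher in SW48 and 2 lower, where 44.9% of all genes were called. For Nutlin-3a 1 of the 9 was called, LGR5, which fell in SW48 from 6.75 to 6.12. The labels' extraction text names thyroids. Of 8 thyroid markers 5 were measured, their group means lay between 4.49 and 6.24, below the median gene at 6.47, and 0 of 5 were called for Nutlin-3a. Of the immune, fibroblast and endothelial markers 6 were measured, and THY1 in HCT116 was the one called for Nutlin-3a.

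Sequences around the gene starts are shown for 3 members that fell after Nutlin-3a and hold the E2F-type motif TTCCCGC on either strand. They are also shown for EXO1 and RAD51C, the strongest fall and the single rise, where these letters were not found. Other forms of the E2F motif were not searched, so EXO1 and RAD51C may hold them. The sequences come from RefSeq on build GRCh38.p14 and run 5′ to 3′ on the strand of the gene. They span 250 bases before the start to 30 after it. Capitals mark the E2F-type motif, searched as TTCCCGC on both strands and printed as it reads on the gene's strand. RAD54L lies on the forward strand at chr1:46247438-46247717, XRCC3 on the reverse strand at chr14:103715422-103715701, and BRIP1 on the reverse strand at chr17:61863499-61863778. EXO1 lies on the forward strand at chr1:241847954-241848233 and RAD51C on the forward strand at chr17:58692323-58692602.
RAD54L: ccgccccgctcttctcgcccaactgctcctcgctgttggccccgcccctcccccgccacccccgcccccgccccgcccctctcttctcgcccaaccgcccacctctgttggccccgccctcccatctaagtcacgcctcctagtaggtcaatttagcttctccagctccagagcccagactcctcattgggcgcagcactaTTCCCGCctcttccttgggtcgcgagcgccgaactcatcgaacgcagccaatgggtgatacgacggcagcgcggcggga
XRCC3: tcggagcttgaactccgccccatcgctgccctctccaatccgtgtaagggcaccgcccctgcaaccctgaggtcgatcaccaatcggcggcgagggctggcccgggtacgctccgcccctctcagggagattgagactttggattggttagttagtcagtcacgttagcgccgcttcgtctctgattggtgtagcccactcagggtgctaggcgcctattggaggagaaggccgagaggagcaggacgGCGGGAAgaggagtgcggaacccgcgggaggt
BRIP1: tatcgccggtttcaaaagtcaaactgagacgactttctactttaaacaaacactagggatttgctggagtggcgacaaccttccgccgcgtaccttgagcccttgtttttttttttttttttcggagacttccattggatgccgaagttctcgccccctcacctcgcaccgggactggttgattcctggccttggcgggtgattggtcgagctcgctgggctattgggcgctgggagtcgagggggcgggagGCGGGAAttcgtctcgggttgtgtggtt
EXO1: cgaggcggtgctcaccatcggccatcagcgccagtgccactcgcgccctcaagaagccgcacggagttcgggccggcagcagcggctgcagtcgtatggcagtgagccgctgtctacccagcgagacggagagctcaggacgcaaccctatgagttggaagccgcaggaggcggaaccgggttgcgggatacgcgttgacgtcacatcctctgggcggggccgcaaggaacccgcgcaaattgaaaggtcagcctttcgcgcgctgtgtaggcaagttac
RAD51C: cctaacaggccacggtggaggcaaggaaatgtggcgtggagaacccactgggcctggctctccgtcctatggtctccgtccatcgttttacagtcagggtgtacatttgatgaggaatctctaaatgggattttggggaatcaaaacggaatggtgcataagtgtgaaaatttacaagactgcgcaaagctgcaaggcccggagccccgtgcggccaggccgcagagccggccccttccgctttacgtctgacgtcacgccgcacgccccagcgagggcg

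In these sequences the motif begins 49 bases before the start of RAD54L, 2 bases before the start of XRCC3 and at base 3 after the start of BRIP1. A start window, with 50 bases after the start, was available for 38 members, and 11 of them (28.9%) held the motif in at least 1 window. Among the members that were lower in the mean of the 3 lines it was found in 7 of 15 (46.7%), namely BRIP1, PARP2, RAD51AP1, RAD54L, RAD9A, XRCC2 and XRCC3. It was found in 4 of the 23 other members (17.4%) and in 11.3% of the 9559 measured protein-coding genes with a window. A second motif of cell cycle genes, the cell cycle homology region, searched as TTTGAA on both strands, was present in 4 of the 15 lower members (26.7%), in 3 of the 23 others (13.0%) and in 15.2% of measured genes. A p53 half-site was found in 1 of 38 members, UNG (2.63%), against 8.14% of measured genes. These matches describe letters in a window and were not tested. The E2F shares count the letters TTCCCGC alone and miss other forms of the motif.

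After Nutlin-3a in HCT116, 11 of 43 members were lower and 0 were higher by limma's moderated test (adjusted p under 0.05 over all genes). Over all 14118 genes 5.11% were called, 2.03% lower and 3.08% higher. The members' median log2 change was -0.06, against -0.01 for all genes. Homologous recombination, the largest group with 14 members, supplied 5 of the 11 (35.7% of its members): EXO1, XRCC2, RAD54L, RAD54B and XRCC3. The checkpoint supplied RAD9A, RAD1 and CHEK1 (3 of 8 members, 37.5%) and base excision repair NEIL3 and UNG (2 of 7, 28.6%). The Fanconi anaemia pathway supplied the helicase BRIP1 (1 of 2). Without untreated replicate 1 or 2, the count of members called in HCT116 was 3 or 1, and without Nutlin-3a replicate 1 or 2 it was 2 or 1. The count was 6 with each array centred on its median, and EXO1 was called in every alternative. Backgrounds here and below are those of the main fit, and shares of all genes under the alternatives are not given.

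In SW48, 10 members were lower and 1 was higher (background 3.12% of genes called, 1.74% lower and 1.38% higher), and the median change was -0.16 against -0.01 for all genes. The falls were those of EXO1, BRIP1, XRCC3, RAD54B, RAD54L, CHEK1, XRCC2, UNG, RAD18 and RAD1. The rise was that of RAD51C. Without untreated replicate 1 or 2 the count of 11 became 7 or 5, and without Nutlin-3a replicate 1 or 2 it became 6 or 5. EXO1 and BRIP1 were called in every alternative.

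In RKO, EXO1 was lower and RAD51C was higher, and the other 41 members were not called (background 2.02%, 0.793% lower and 1.23% higher). The median change was -0.06, against -0.01 for all genes. At an unadjusted p under 0.05 there were 15 members in RKO, 14 in HCT116 and 21 in SW48. The share of all genes at that threshold is not given here, so these counts cannot be read as a response of the members.

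Of the members called lower in HCT116, 9 of 11 (81.8%) were also called lower in SW48, where they were 9 of 10 (90.0%). They were BRIP1, CHEK1, EXO1, RAD1, RAD54B, RAD54L, UNG, XRCC2 and XRCC3. Over all genes 97 were lower in both lines, which is 33.9% of the genes lower in HCT116, 39.4% of those lower in SW48 and 0.687% of all genes. RAD9A and NEIL3 were called lower in HCT116 and not in SW48, and RAD18 in SW48 and not in HCT116. For none of these 3 did the test of the difference between the lines pass.

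In the mean of the 3 lines, 16 members were lower and 1 was higher (background 10.8%, 6.44% lower and 4.33% higher). The members' median was -0.11, against -0.01 for all genes. Beyond the genes called in a single line these were RAD51AP1, PARPBP, PARP2 and PMS2. A call in the mean need not be a fall in each line. Among the lower members, BRIP1 stood at 0.14 in RKO, and RAD54B and RAD9A both at -0.02. PARP2, PMS2 and RAD9A lost their calls without one or another of the arrays, with adjusted p up to 0.0767, 0.0913 and 0.0807, and the 14 other calls held without any one array. Estimates were negative in all 3 lines for 23 of 43 members, against 20.7% of all genes. They were positive in all 3 for 2 of 43, RAD50 and RAD51C, against 14.6% of all genes.

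**Figure D1:**
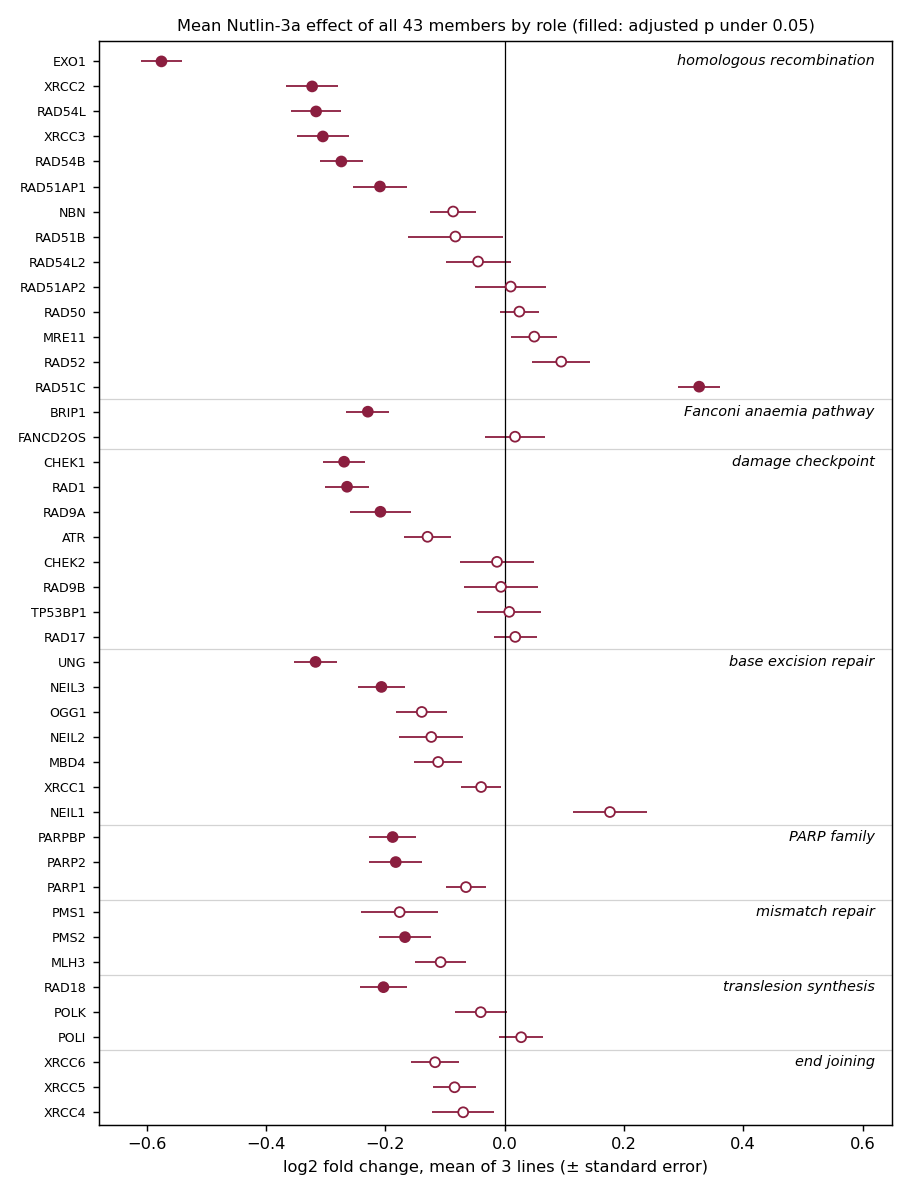
Mean Nutlin-3a effect over the 3 lines for each of the 43 members, grouped by role, as log2 fold change (horizontal axis) with its standard error; filled points have an adjusted p under 0.05. The filled points lie between -0.58 (EXO1) and -0.17 (PMS2), except RAD51C at 0.33.

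In homologous recombination, 6 of 14 members were lower and 1 was higher in the mean of the 3 lines (background 6.44% lower and 4.33% higher). EXO1, an exonuclease that resects broken ends and also serves mismatch repair, read 9.67 and 9.79 in untreated HCT116 and 9.03 and 9.09 after Nutlin-3a. In SW48 it went from 9.16 on both arrays to 8.38 and 8.43, and in RKO from 9.79 on both to 9.49 on both. The treated arrays lay below the untreated ones in every line. EXO1 fell 1.59-fold in HCT116 (log2 fold change -0.67 ± 0.060, limma adjusted p = 0.00023), 1.69-fold in SW48 (-0.76 ± 0.060, 0.000112) and 1.23-fold in RKO (-0.30 ± 0.060, 0.0381). The RKO call was lost without any one of the 12 arrays (adjusted p up to 0.162). EXO1's change in RKO minus that in SW48 was 0.46 (95% interval 0.27 to 0.65, adjusted p = 0.0769), and the F test over the 3 lines did not pass (0.0864).

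RAD54L and RAD54B encode DNA translocases that act in recombination. RAD54L read 8.83 and 8.87 in untreated HCT116 against 8.48 and 8.46 after Nutlin-3a, 8.47 and 8.49 against 7.95 and 8.11 in SW48, and 8.82 and 8.97 against 8.77 and 8.79 in RKO. It fell in HCT116 (-0.38 ± 0.072, adjusted p = 0.0169) and SW48 (-0.45 ± 0.072, 0.00901) and stood at -0.12 in RKO. The HCT116 call was lost without any one of the 4 HCT116 arrays (adjusted p 0.0771 to 0.0998), and the SW48 call without untreated replicate 1 (0.0607), untreated replicate 2 (0.0563) or Nutlin-3a replicate 1 (0.0753). RAD54B fell in HCT116 (-0.33 ± 0.062, adjusted p = 0.0143) and SW48 (-0.47 ± 0.062, 0.00326), while in RKO its arrays read 9.25 and 9.24 untreated and 9.23 on both after treatment. Without untreated replicate 2 or Nutlin-3a replicate 2 its HCT116 call was lost (0.100 and 0.108). Its change in RKO minus that in SW48 was 0.45 (95% interval 0.25 to 0.64) and did not pass (adjusted p = 0.0928).

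XRCC2, XRCC3, RAD51B and RAD51C encode related proteins of homologous recombination, and they did not move one way. XRCC2 fell in HCT116 (-0.39 ± 0.075, adjusted p = 0.0183) and in SW48 (-0.40 ± 0.075, 0.0213), from 9.32 and 9.48 to 9.02 and 9.01 and from 9.19 and 9.26 to 8.84 and 8.82. XRCC3 fell in the same lines (-0.31 ± 0.076, 0.0497, and -0.47 ± 0.076, 0.00909), and its level in SW48 went from 6.45 and 6.57 to 6.06 and 6.02. In RKO the estimates were -0.19 for XRCC2 and -0.14 for XRCC3, neither called. The 4 calls of these genes in the single lines were each lost without any one of at least 3 of that line's arrays (adjusted p up to 0.213). Both genes were lower in the mean of the 3 lines (-0.32 and -0.30), whichever array was left out. RAD51B was not called, at 0.10 in HCT116, -0.24 in SW48 and -0.10 in RKO.

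RAD51C was the member that rose. It read 9.33 and 9.34 in untreated SW48 and 9.69 and 9.82 after Nutlin-3a, and 10.36 and 10.30 against 10.77 and 10.76 in RKO. The groups did not overlap, and the rise was 1.34-fold in SW48 (0.43 ± 0.061, adjusted p = 0.00511) and 1.35-fold in RKO (0.44 ± 0.061, 0.00699). The RKO call was lost without untreated replicate 2 or either Nutlin-3a array (adjusted p 0.0505 to 0.0548). In HCT116 its arrays read 10.58 and 10.63 untreated and 10.72 on both after treatment (0.12 ± 0.061, adjusted p = 0.341). The change in SW48 minus that in HCT116 was 0.31 (95% interval 0.12 to 0.50, adjusted p = 0.193), and the F test over the 3 lines gave 0.190, so a difference between lines was not called.

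The MRE11, RAD50 and NBN proteins form the complex that senses double-strand breaks, and 0 of the 3 genes were called by limma, with MRE11 and NBN at an unadjusted p of 0.0102 and 0.0214 in RKO. RAD50 stood at 0.05 in HCT116, 0.00 in SW48 and 0.02 in RKO, each with a standard error of 0.056. MRE11 read 7.37 and 7.33 in untreated RKO and 7.53 and 7.60 after Nutlin-3a (0.21 ± 0.067, adjusted p = 0.146), and -0.13 in SW48. NBN stood at -0.02, -0.06 and -0.18 in HCT116, SW48 and RKO. RAD52 and RAD54L2 were not called, and RAD51AP2 read between 3.37 and 3.84 on all arrays, where a change would be hard to detect.

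**Figure D2:**
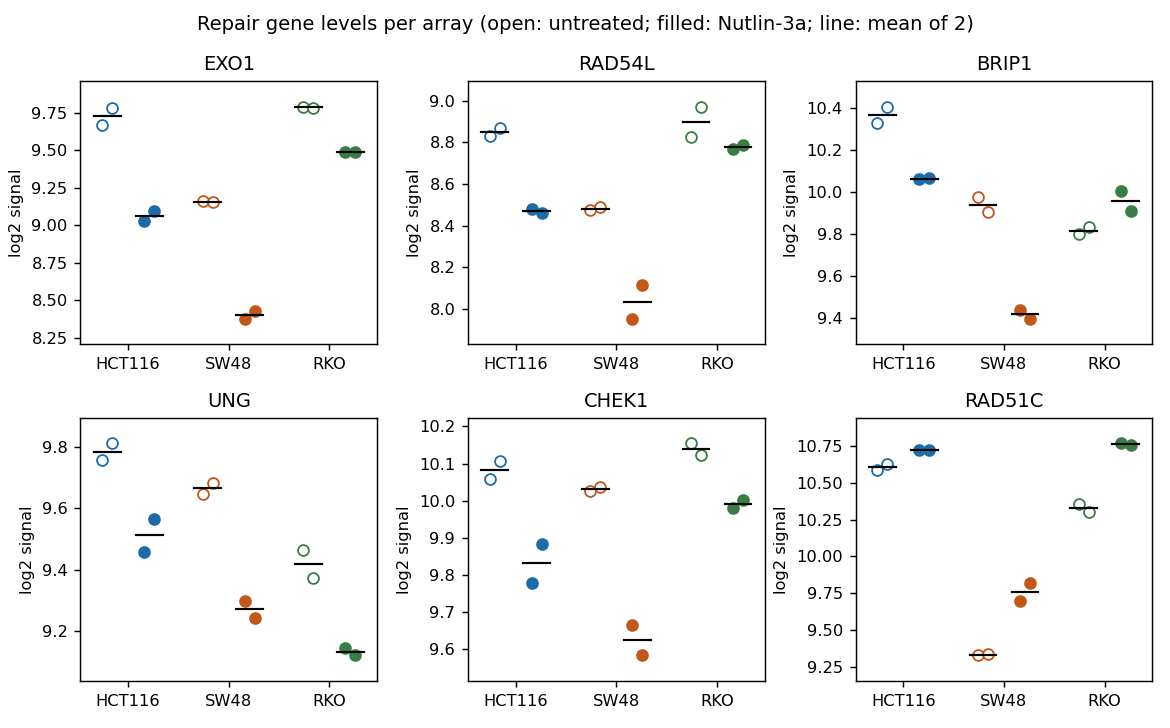
Log2 signal of EXO1, RAD54L, BRIP1, UNG, CHEK1 and RAD51C on each of the 12 arrays (open: untreated, filled: Nutlin-3a, lines: means of 2 arrays). In EXO1 the treated arrays lie below the untreated ones in each line, in BRIP1 they lie below them in HCT116 and SW48 and above them in RKO, and in RAD51C they lie above them in each line.

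BRIP1, a helicase that partners BRCA1 in recombination and crosslink repair, was the member whose response differed between lines by the F test (adjusted p = 0.0291, background 0.503% of genes). It read 10.33 and 10.40 in untreated HCT116 and 10.06 and 10.07 after Nutlin-3a. In SW48 it went from 9.97 and 9.90 to 9.44 and 9.39, and in RKO from 9.80 and 9.83 to 10.00 and 9.91. The fall was 1.23-fold in HCT116 (-0.30 ± 0.062, adjusted p = 0.0222) and 1.44-fold in SW48 (-0.52 ± 0.062, 0.0015), while RKO stood at 0.14 ± 0.062 (0.295). The change in RKO minus that in SW48 was 0.66 ± 0.088 (adjusted p = 0.0193, background 0.361%), and in RKO minus HCT116 0.44 (95% interval 0.25 to 0.64, adjusted p = 0.0957). The F test lost its call without any one of the 12 arrays (adjusted p 0.0578 to 0.102). The difference between RKO and SW48 lost its call without RKO Nutlin-3a replicate 1 and without any one of the untreated RKO, untreated SW48 and treated SW48 arrays (0.0509 to 0.0981), with estimates between 0.61 and 0.70. The HCT116 call was lost without any one of its arrays (0.0732 to 0.134).

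For other members, differences in response between lines were not called. By limma's adjusted p, 0 members passed for SW48 minus HCT116 (background 0.212%; 5 members at an unadjusted p under 0.05) and 0 for RKO minus HCT116 (background 0.248%; 6 members). BRIP1 was the 1 member that passed for RKO minus SW48, where 11 had an unadjusted p under 0.05. The unadjusted counts have no share of all genes beside them, and the backgrounds given are for the adjusted p. The counts were 1, 3 and 3 where limma's prior was robust and followed intensity, a setting whose share of all genes is not given. The 3 comparisons share arrays pairwise.

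**Figure D3:**
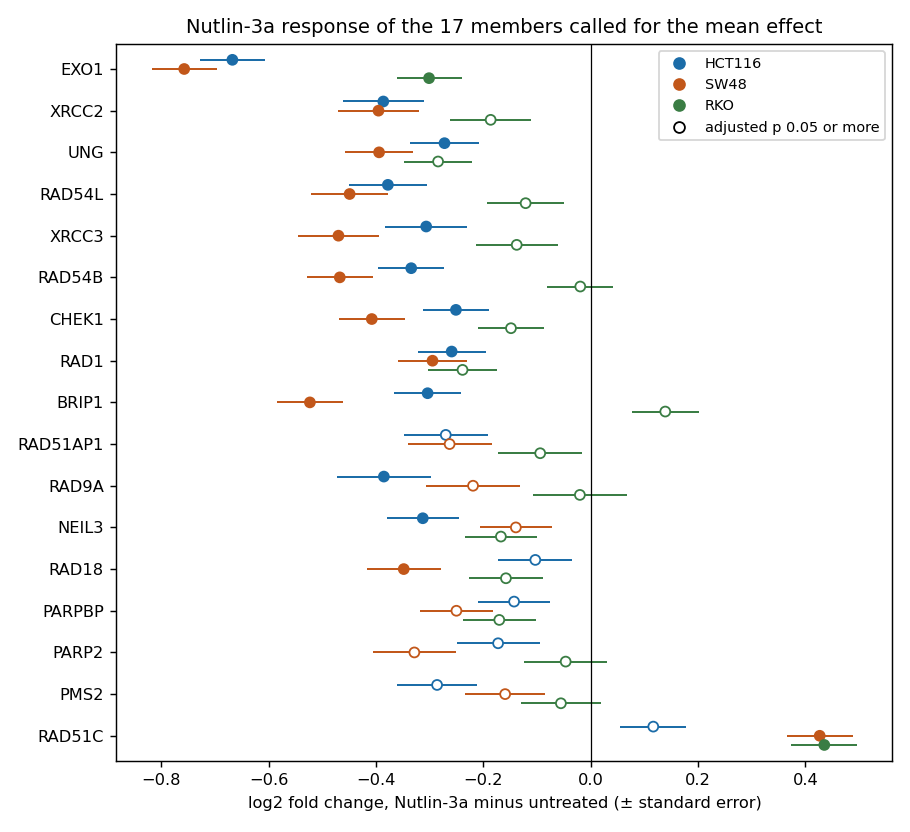
Nutlin-3a response (log2 fold change ± standard error, horizontal axis) in HCT116, SW48 and RKO for the 17 members called in the mean of the 3 lines; filled points have an adjusted p under 0.05 in that line. In BRIP1 the points run from -0.52 in SW48 to 0.14 in RKO, whereas in RAD1 they lie between -0.29 and -0.24.

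Among the checkpoint genes, the kinase CHEK1 and the clamp subunits RAD1 and RAD9A fell, and the upstream kinase ATR did not pass. CHEK1 read 10.06 and 10.11 in untreated HCT116 against 9.78 and 9.88 after Nutlin-3a, 10.03 and 10.04 against 9.66 and 9.58 in SW48, and 10.15 and 10.12 against 9.98 and 10.00 in RKO. The treated arrays were lower in each line, with calls in HCT116 (-0.25 ± 0.061, adjusted p = 0.0474) and SW48 (-0.41 ± 0.061, 0.00665). The HCT116 call was lost without any one of the 12 arrays (up to 0.220), and the SW48 call without SW48 Nutlin-3a replicate 2 (0.0620). In the mean of the 3 lines CHEK1 fell by 0.27 on the log2 scale (adjusted p = 0.00114), and that call held without any one array.

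RAD1 showed nearly the same estimate in each line, -0.26 in HCT116, -0.29 in SW48 and -0.24 in RKO, with calls in HCT116 (adjusted p = 0.0483) and SW48 (0.0384) that were each lost without 10 of the 12 arrays in turn (up to 0.210). Its mean effect was -0.26 ± 0.037 (0.00158). RAD9A fell in HCT116, from 8.84 and 8.93 to 8.55 and 8.45 (-0.39 ± 0.088, 0.0355), a call lost without 6 of the 12 arrays in turn, the HCT116 arrays among them (up to 0.194). It read -0.22 in SW48 and -0.02 in RKO. ATR stood at 0.01 in HCT116 and at -0.20 in both SW48 and RKO. RAD17, which loads the clamp, CHEK2, RAD9B and TP53BP1, a break-end binding protein, were not called in any line or in the mean.

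In base excision repair, UNG, the glycosylase that removes uracil from DNA, fell. It read 9.76 and 9.81 in untreated HCT116 and 9.46 and 9.56 after Nutlin-3a, 9.65 and 9.68 against 9.30 and 9.24 in SW48, and 9.46 and 9.37 against 9.15 and 9.12 in RKO. The estimates were -0.27 in HCT116 (adjusted p = 0.0387), -0.39 in SW48 (0.00902) and -0.28 in RKO, where it was not called (0.0574). The HCT116 call was lost without 10 of the 12 arrays in turn (up to 0.195), and the SW48 call without untreated replicate 1 (0.0522), untreated replicate 2 (0.0589) or Nutlin-3a replicate 2 (0.0767). The mean effect of -0.32 ± 0.037 (0.000509) held without any one array.

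NEIL3, a glycosylase for oxidised bases that is known to be expressed in dividing cells, fell in HCT116 from 10.12 and 10.13 to 9.81 and 9.82 (-0.31 ± 0.067, adjusted p = 0.0269; 0.118 to 0.139 without any one HCT116 array). NEIL3 stood at -0.14 in SW48 and -0.17 in RKO, neither called, and was lower in the mean of the 3 lines. NEIL1, a relative, read 8.44 and 8.60 in untreated SW48 and 8.80 and 9.02 after treatment, and did not pass (0.39 ± 0.11, adjusted p = 0.0959). NEIL2, OGG1, which removes oxidised guanine, MBD4 and the scaffold XRCC1 were not called. OGG1 stood at -0.24 in HCT116 (adjusted p = 0.0980).

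Of the smaller groups, RAD18, the ubiquitin ligase that recruits translesion polymerases, fell in SW48 from 9.57 and 9.73 to 9.26 and 9.34 (-0.35 ± 0.069, adjusted p = 0.0257). That call was lost without untreated replicate 2 (0.131), Nutlin-3a replicate 1 (0.148) or Nutlin-3a replicate 2 (0.0779). RAD18 stood at -0.10 in HCT116 and -0.16 in RKO, neither called, and was lower in the mean of the 3 lines. The polymerases POLI and POLK were not called. Of the PARP genes, PARP2 (-0.18, adjusted p = 0.0289) and PARPBP (-0.19, 0.0140), whose product restrains recombination, fell in the mean of the 3 lines, while PARP1 stood at -0.06 (0.270). The mismatch repair gene PMS2 fell in the mean (-0.17 ± 0.043, 0.0351), where near-identical pseudogene copies may share its probes. PMS1 and MLH3 were not called.

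The end-joining genes XRCC4, XRCC5 and XRCC6 were not called. XRCC5 and XRCC6 encode the Ku subunits that cap broken ends, and their treated arrays lay below the untreated ones in each line by small amounts, with mean effects of -0.08 ± 0.036 (adjusted p = 0.194) and -0.12 ± 0.040 (0.0958). In all, 26 members were not called in any line or in the mean.

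Of 74 other repair genes on a list outside the naming rule 45 were measured. In HCT116 2 rose and 9 fell, in SW48 2 rose and 12 fell, in RKO 3 rose and 1 fell, and in the mean 3 rose and 18 fell. Over all genes 5.11%, 3.12%, 2.02% and 10.8% were called in the same order. RRM2B, a ribonucleotide reductase subunit that p53 induces to supply nucleotides for repair, rose 2.13-fold in HCT116 (1.09 ± 0.083, adjusted p = 6.55e-05), and its change was 1.14 in SW48 and 0.96 in RKO. The helicase gene ASCC3 rose by 0.73, 0.78 and 0.55 in the same order. PCNA, the sliding clamp, rose in RKO (0.41 ± 0.071, 0.0222). Its treated arrays also lay above the untreated ones in HCT116 (11.59 and 11.52 against 11.28 and 11.31) and SW48 (11.15 and 11.09 against 10.87 and 10.94). It was not called in these 2 lines.

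The largest falls of that list were those of the mismatch repair gene MSH6 (-0.76, -0.89 and -0.45 in HCT116, SW48 and RKO, all called) and of CLSPN, the adaptor of CHEK1 (-0.64 and -0.81, with -0.27 not called in RKO). USP1, which removes ubiquitin from FANCD2, fell in HCT116 (-0.56) and SW48 (-0.43). BARD1, the partner of BRCA1, fell in HCT116 from 8.64 and 8.57 to 8.00 and 8.06 and in SW48 from 8.45 and 8.43 to 7.81 on both, but read 8.41 and 8.46 against 8.38 and 8.31 in RKO. The change in HCT116 was -0.58 and in SW48 -0.64, against -0.09 in RKO.

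Most listed replication genes had negative estimates after Nutlin-3a, 18 in HCT116, 18 in SW48 and 17 in RKO. PCNA is on this list and on that of other repair genes. Of 20 listed genes of replication and proliferation, among them the MCM helicase subunits, 12 were lower in HCT116, 15 in SW48 and 5 in RKO, with 1 higher in RKO (PCNA). Over all genes 2.03%, 1.74% and 0.793% were lower in these lines, and 1.23% were higher in RKO. Their median changes were -0.30, -0.57 and -0.19. In the mean of the 3 lines 17 were lower and 2 higher (background 6.44% lower and 4.33% higher). Their part in the result for repair genes was not tested. In RNA from whole cultures, fewer cells in S phase and less RNA per cell cannot be told apart.

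Untreated levels differed between the lines for 38 of 43 members by the F test, where 58.1% of all genes were called. In pairs, 30 members differed between SW48 and HCT116 (8 higher and 22 lower in SW48, background 44.9%, with 22.7% higher and 22.1% lower), 31 between RKO and HCT116 (11 higher and 20 lower in RKO, background 41.5%, with 22.4% and 19.0%) and 27 between RKO and SW48 (16 higher and 11 lower in RKO, background 44.7%, with 23.6% and 21.1%). CHEK1, MRE11, OGG1, FANCD2OS and RAD51AP2 were not called by the F test. Line and any batch of culture or hybridisation that goes with it cannot be told apart.

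The widest difference was that of XRCC4, the partner of DNA ligase in end joining. It read 9.64 and 9.78 in HCT116, 8.98 and 8.74 in RKO and 8.13 and 8.10 in SW48, so the lines did not overlap and SW48 was 3.02-fold below HCT116 (-1.59 ± 0.090, adjusted p = 2.6e-07). RAD51C followed the same order, with 10.58 and 10.63 in HCT116, 10.36 and 10.30 in RKO and 9.33 and 9.34 in SW48 (2.42-fold lower than HCT116, -1.27 ± 0.061, 8.64e-08). After Nutlin-3a its SW48 arrays, at 9.69 and 9.82, were still below every untreated array of the other lines. TP53BP1 was also lowest in SW48, at 7.97 and 7.81, against 8.81 and 8.85 in HCT116 and 8.35 and 8.40 in RKO.

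RKO had the lowest RAD50, at 9.57 and 9.53, against 10.21 and 10.23 in HCT116 and 10.65 and 10.61 in SW48. It was 2.11-fold below SW48 (-1.08 ± 0.056, adjusted p = 1.31e-07). PMS2 was lowest in RKO too, at 7.77 and 7.65, with 8.53 and 8.50 in HCT116 and 8.63 and 8.81 in SW48. The difference of PMS2 between SW48 and HCT116 was small (0.20, adjusted p = 0.0473) and was lost without 9 of the 12 arrays in turn (up to 0.311). NEIL1 was lowest in HCT116 (7.71 and 7.53) and did not differ beyond its spread between SW48 (8.44 and 8.60) and RKO (8.39 and 8.65). NEIL2 and NEIL3 followed the reverse course, with HCT116 highest and RKO lowest. RAD51B was highest in SW48, at 6.27 and 6.02, against 4.96 and 5.24 in HCT116.

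Several members that Nutlin-3a lowered also differed between untreated lines. EXO1 was lower in SW48 than in HCT116 (-0.57 ± 0.060) and RKO, while HCT116 and RKO were not told apart (0.06, adjusted p = 0.483). RAD54B was likewise lower in SW48 than in HCT116 (-0.62 ± 0.062), and RAD1 was ordered RKO, HCT116, SW48. BRIP1 was highest in HCT116, and RKO and SW48 did not differ beyond their spread (-0.12 ± 0.062, 0.139). Untreated arrays enter both these differences and the responses above, so both kinds of value are not independent of each other. Of the 20 listed replication and proliferation genes, 19 were lower in untreated SW48 than in untreated HCT116 and 0 higher (background 22.1% lower). Against untreated SW48, 17 of the 20 were higher in untreated RKO and 0 lower (background 23.6% higher). Their part in the untreated differences of repair genes was not tested.

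**Figure D4:**
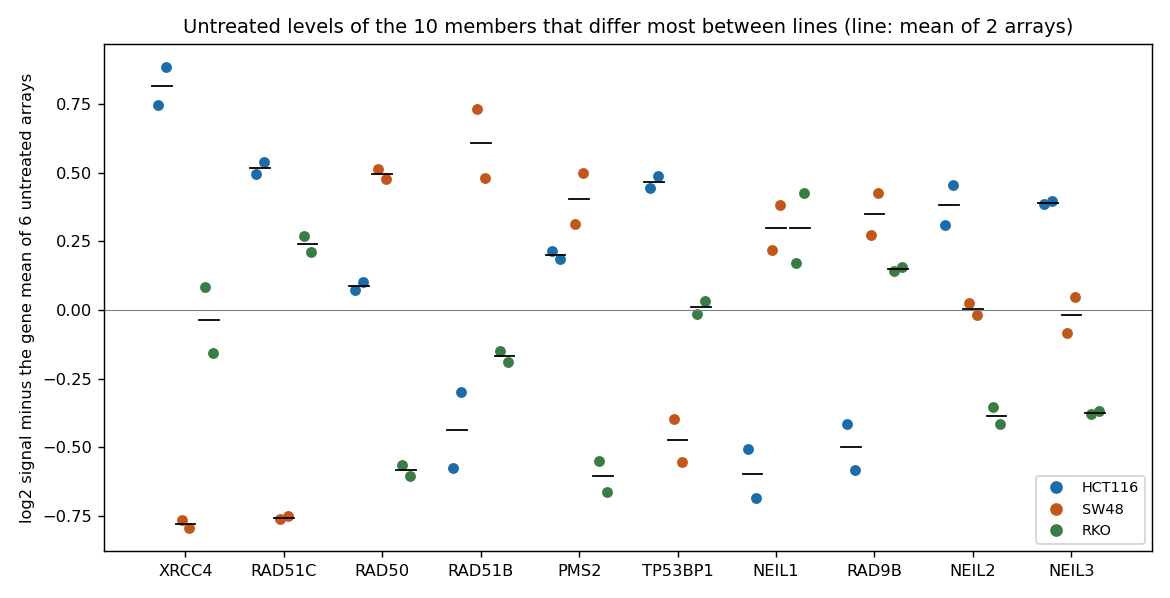
Untreated log2 signal of the 10 members with the widest differences between lines, as the deviation of each array from that gene's mean over the 6 untreated arrays (vertical axis; points: arrays, lines: means of 2). SW48 lies lowest in XRCC4, RAD51C and TP53BP1, RKO in RAD50, PMS2, NEIL2 and NEIL3, and HCT116 in RAD51B, NEIL1 and RAD9B.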

How the data were processed

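The values are the authors' deposited log2 signals, 1 per probe set and array. Per the submitters' processing notes GCOS was run. Its version, any background correction or normalization and the log base are not given in the sources used. Base 2 was taken from the range of 2.22 to 13.45, and column medians of 4.97 to 5.05 show arrays on 1 scale. A platform annotation named 14530 of 37270 probe sets (39.0%) with 1 gene symbol. For a gene with several, the probe set with the highest mean was used, as for POLK among the members. A limma 3.58.1 model (R 4.3.3) of 6 group means was fitted to all 14118 genes on 12 arrays (6 residual and 3.71 prior degrees of freedom). P-values were Benjamini-Hochberg adjusted over all genes, with a call at an adjusted p under 0.05. The number of arrays limits the precision. On simulated data for HCT116, 78% of changes of 0.5 (log2) and 99% of changes of 1 were recovered, and 4.32% of calls were false. The simulation used independent normal noise and changed a small part of the genes. Changes below 0.5 were not simulated, and all HCT116 calls of members except EXO1 were smaller than that. These shares therefore do not describe those calls. Genes named are the called members by size of change and a short list of repair genes; a ranking by likeness to a reference gene was not run because that gene is not analysed here. Members, gene lists and motifs were chosen with earlier results of these data known. Alternatives were each array left out, other scalings, probe set rules, filters and priors, only the arrays compared, and the replicate number as a block. Sequences are RefSeq's for GRCh38.p14. Probe coordinates are not reported, since their build is not stated.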

Additional observations from a re-analysis of the deposited data

Results flagged for a closer look

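The response of BRIP1 differed between lines. Its change in RKO minus that in SW48 was 0.66 on the log2 scale by the test of the difference itself, with a fall in SW48 (-0.52) and an uncalled value above 0 in RKO (0.14). The F test that the 3 responses are equal gave an adjusted p of 0.0291 with limma. The treated arrays lay below the untreated ones in SW48 and HCT116 and above them in RKO, on 2 of 2 arrays each. The F test called 1 of 43 members (2.33%) and 0.503% of all genes, and the call of BRIP1 was lost without any one of the 12 arrays.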

How the results depend on the processing

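Of 130 called results for single members, 80 kept their call under every alternative, 50 lost it under at least one, and 0 reversed. These results pool 30, 31 and 27 differences between untreated lines with the Nutlin-3a calls. The latter are 11 in HCT116, 11 in SW48, 2 in RKO, 17 in the mean and 1 response difference. Calls of the F tests are not among them. The 80 is therefore no measure of how well the Nutlin-3a calls held. Leaving out 1 array at a time gave counts of members called of 1 to 8 in HCT116, 5 to 11 in SW48, 0 to 1 in RKO, 14 to 17 in the mean, 0 to 0 for the F test of responses and 0 to 1 for the response in RKO minus SW48. With only the arrays compared, which leaves fewer residual degrees of freedom, the counts were 1 in HCT116, 2 in SW48, 0 in RKO and 0 for RKO minus SW48. With all probe sets tested they were 4 in HCT116, 1 in RKO, 0 for the F test and 0 for RKO minus SW48. Arrays centred on the median gave 6 in HCT116, and leaving out dim genes gave 2 for RKO minus SW48. An intensity trend with a robust prior gave 5 in RKO, 4 for the F test, and 1, 3 and 3 for the responses in SW48 minus HCT116, RKO minus HCT116 and RKO minus SW48. Shares of all genes called under the alternatives are not given here. A shift of the members alone can therefore not be told from one of all genes. The cause of the other shifts was not tested. Replicate numbers showed little shared effect: differences between replicates correlated at -0.13 to 0.05 between groups. This check cannot tell whether arrays of the same number were made together. With the replicate number as a block the counts were 8 in HCT116, 10 in SW48, 1 in RKO, 16 in the mean and 0 for the F test. With the untreated RKO numbers crossed, a setting chosen after seeing the data, 30 members differed between untreated RKO and HCT116. Changes near 0.25 lie at the edge of what 2 arrays a group can call.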
